A study of Prunus persica with 25 samples.

Results

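The comparison described here is that of vegetative axillary buds of the peach cultivar Fantasia at 475 chilling units (475CU) with the same kind of bud at 0 units (0CU), both collected in season A. It was defined by the sample labels and the table that holds them, and it comprised 6 of the 25 libraries of the series, 3 of 475CU and 3 of 0CU. A chilling unit (CU) is a weighted hour of cold in the Utah model, so 0CU buds had been exposed to no effective cold so far and 475CU buds to a part of the cold that the cultivar needs. The buds came from orchard trees of 1 genotype, carried no transgene or treatment other than the cold of that winter, and were freed of their outer scales before total RNA was extracted. Day length and date changed together with chilling, and the 3 cannot be told apart in this contrast. The series also holds 770CU buds of season A and buds of another winter, season B, which are given beside the values only where they add to them.

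In winter, buds of temperate fruit trees are commonly described as dormant. In deep dormancy, growth does not resume even in warmth until enough cold has been perceived. The study reports from sections that the vegetative buds nevertheless went on developing during winter. The DORMANCY-ASSOCIATED MADS-BOX genes (*DAM1* to *DAM6*), a tandem cluster of transcription factors related to *Short Vegetative Phase* (*SVP*), are known for their part in keeping peach buds dormant, and a peach mutant with a deletion in this cluster does not stop growing. Abscisic acid (ABA) is the hormone associated with deep dormancy, gibberellins (GA) with the return to growth, and jasmonates (JA) with defence and stress.

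A large share of the transcriptome differed between 475CU and 0CU buds, with more genes lower than higher at 475CU. Of 26873 genes in the table, 20950 passed the filter on low counts, and 5177 of them (24.7%) were called at an adjusted p below 0.05 and a fold change above 1.4 in edgeR's quasi-likelihood test. Of these, 2256 genes rose at 475CU (10.8% of the tested genes) and 2921 fell (13.9%). The median change was 1.73-fold for the genes that rose and 1.92-fold for those that fell. Changes of more than 1 on the log2 scale were found for 777 genes that rose and 1318 that fell. For 5015 of the called genes the 3 libraries of 475CU did not overlap with those of 0CU, and this was also the case for 10755 of all tested genes (51.3%). When each of the 6 libraries was left out in turn, between 4456 and 4976 genes were called, and 3469 of the 5177 genes were called in the same direction in all 6 of these fits.

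**Figure D1:**
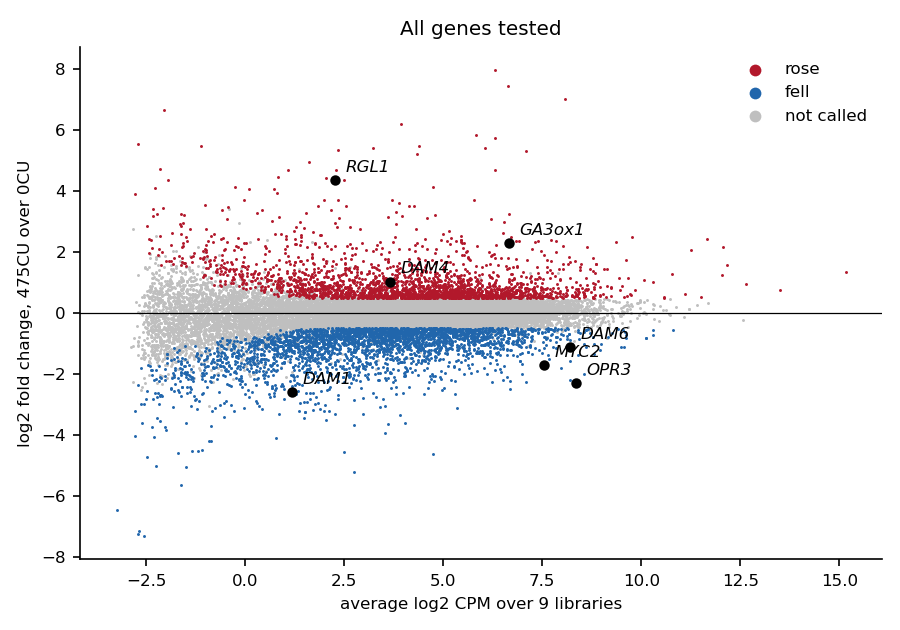
Each point is 1 of 20950 tested genes, with its average log2 CPM (counts scaled to equal library size) over the 9 libraries of season A on the x axis and the log2 fold change of 475CU over 0CU on the y axis. Red points are the 2256 genes that rose, blue points the 2921 that fell and grey points the rest, and black points mark 7 named genes.

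The 6 libraries held between 39615840 and 62009694 counts. Between 96.0% and 96.4% of the counts above 0 were even numbers, so each read pair was probably counted as 2, and this doubling makes counting error look smaller than it was. Between 4153 and 4633 genes had no count in a library, against 14 to 38 genes in the libraries of season B. Which season is nearer to the true level of such genes was not tested. A low count in season A cannot be taken as lack of expression, nor a low count in season B as expression. In a principal component analysis of the 6 libraries, the first axis separated 475CU from 0CU and took up 63.2% of the variance. According to the study, buds of several trees formed the biological replicates, but the labels do not say whether the libraries of a group came from separate trees, so the p-values measure the spread between these libraries only. In bulk samples, fewer cells of a type and less RNA per cell cannot be told apart.

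The tissue was checked with marker genes of shoot and flower meristems. All 7 genes used as shoot meristem markers were detected in each library, with summed levels of 385 to 439 CPM at 475CU and 400.0 to 435 CPM at 0CU. *CLAVATA3/ESR* is among the 7 because the study groups it with meristem genes. Of these markers, 1 rose and 3 fell, so the similar sums do not mean that each marker was alike in both groups. The summed level of the 3 flower markers *LFY*, *AGL79* and *SEP1* was 20.9, 30.6 and 15.6 CPM at 475CU and 11.8, 12.0 and 21.6 CPM at 0CU, and none of the markers was at 0. *LFY* (PRUPE_5G140700), which gives a meristem the identity of a flower, had 3.96, 5.25 and 3.09 CPM at 475CU and 1.04, 1.16 and 5.59 CPM at 0CU. The third 0CU library was thus above all others, and *LFY* was not called (log2 fold change 0.65, standard error (SE) 0.57, edgeR adjusted p = 0.397). Without that library, *LFY* (log2 fold change 1.90, edgeR adjusted p = 0.00335) and *SEP1* (2.31, edgeR adjusted p = 0.00384) were higher at 475CU. *AGL79* was not called with all libraries but was called as higher at 475CU when 1 other library was left out. Its log2 fold changes ran from 0.19 to 0.71 over the 6 fits without a library. Whether some flower bud tissue contributed to the third 0CU library or to the 475CU libraries was not tested.

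Of the 5 tested genes of the *DAM* cluster, 4 fell and 1 rose at 475CU, where 13.9% of all tested genes fell and 10.8% rose. *DAM6* (PRUPE_1G531700) had 255, 265 and 249.7 CPM at 475CU and 581, 554 and 532 CPM at 0CU. The groups were far apart and the libraries of each were close to one another, and *DAM6* fell 2.17-fold (log2 fold change -1.11, SE 0.10, edgeR adjusted p = 2.88e-05). *DAM5* (PRUPE_1G531600) had 47.6, 51.2 and 53.2 CPM at 475CU and 96.6, 89.8 and 81.3 CPM at 0CU, without overlap, and fell 1.76-fold (log2 fold change -0.82, SE 0.11, edgeR adjusted p = 0.000292). The mean level at 770CU was lower again for both genes, with 72.5 ± 10.1 CPM for *DAM6* and 15.6 ± 2.27 CPM for *DAM5* (SD, n = 3). The median log2 fold change was -0.82 for the 5 tested *DAM* genes and -0.61 for the 7 tested *DAM* and *SVP* genes together, against -0.01 over all tested genes.

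The other members of the cluster did not move as one. *DAM1* (PRUPE_1G531100) had 0.714, 0.947 and 1.03 CPM at 475CU, against 5.25, 6.33 and 4.64 CPM at 0CU. This fall, of 6.04-fold, was the largest of the cluster (log2 fold change -2.60, SE 0.26, edgeR adjusted p = 5.62e-05), on low levels. *DAM4* (PRUPE_1G531500) was the member that went up, with 18.2, 20.6 and 17.0 CPM at 475CU and 10.0, 9.18 and 8.05 CPM at 0CU. All 475CU libraries lay above all 0CU libraries (log2 fold change 1.03, SE 0.20, edgeR adjusted p = 0.00243), and the mean at 770CU was 9.81 ± 2.97 CPM (SD, n = 3), close to that of 0CU. *DAM3* (PRUPE_1G531400) had 12.5, 20.9 and 17.1 CPM at 475CU and 27.4, 26.1 and 23.3 CPM at 0CU. It fell 1.53-fold (log2 fold change -0.61, SE 0.20, edgeR adjusted p = 0.036), but the call was lost in 4 of the 6 fits that left out a library, namely the first (log2 fold change -0.43) or the third (-0.64) of 475CU or the first (-0.56) or second (-0.60) of 0CU.

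*DAM2* (PRUPE_1G531300) could not be compared. It had 0, 8 and 0 counts in the 475CU libraries and 6, 2 and 0 counts in the 0CU libraries, while the 12 vegetative bud libraries of season B held between 1640 and 3476 counts of it. The genes of the cluster are similar in sequence, and how reads shared between them were counted is not given in the sources used here, so the split of reads between members is uncertain.

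Neither *SVP* gene passed both thresholds. *SVP1* (PRUPE_6G199000) had 32.8, 32.2 and 25.8 CPM at 475CU and 41.5, 40.2 and 42.8 CPM at 0CU, without overlap, but its fold change of 1.37 was under the limit of 1.4 (log2 fold change -0.46, SE 0.12, edgeR adjusted p = 0.0118). It passed the limit when the first or the second 475CU library was left out, with log2 fold changes of -0.52 and -0.50. *SVP2* (PRUPE_8G069300) had 112, 111 and 84.4 CPM at 475CU and 99.8, 93.8 and 93.3 CPM at 0CU, with overlap (log2 fold change 0.10, SE 0.12, edgeR adjusted p = 0.538).

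**Figure D2:**
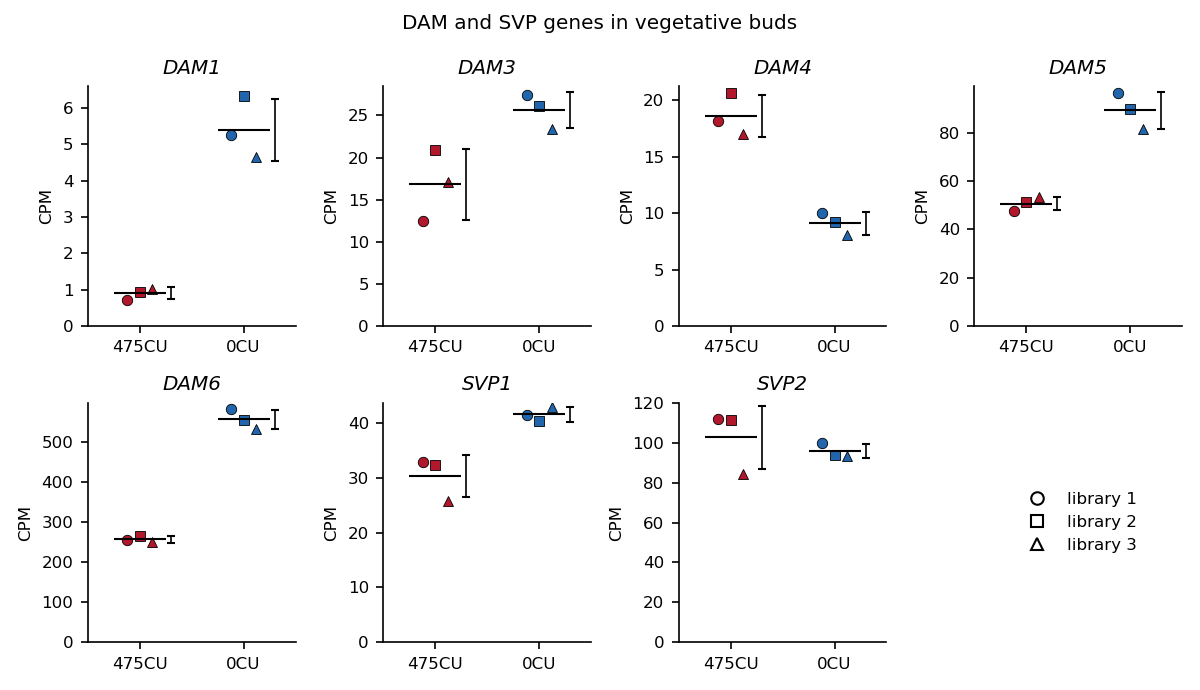
CPM of each *DAM* and *SVP* gene that could be tested, with 475CU in red on the left and 0CU in blue on the right of each panel, 1 symbol per library, a line at the mean and a bar of 1 SD beside it (n = 3). *DAM1*, *DAM5* and *DAM6* stood lower at 475CU and *DAM4* stood higher, each without overlap between the groups.

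Most genes of GA synthesis rose at 475CU. The GA, ABA, JA and meristem lists are those of the study, which took them from the genes that differed in its buds, so their counts are not independent evidence of change. Of the 14 genes of the GA list, 6 rose, none fell and 8 were not called (42.9% called, against 24.7% of all tested genes), and the median log2 fold change was 0.37. *GA3ox1* (PRUPE_1G467600), whose enzyme makes bioactive GA in the last step of synthesis, had 134, 163 and 142 CPM at 475CU and 27.7, 29.7 and 32.6 CPM at 0CU. The libraries of the groups were far apart, with a rise of 4.88-fold (log2 fold change 2.29, SE 0.11, edgeR adjusted p = 1.21e-06), and the level at 770CU was 127 ± 16.1 CPM (SD, n = 3). *GA20ox2* (PRUPE_2G286800), which supplies the precursors used by that enzyme, had 17.6, 34.0 and 24.4 CPM at 475CU and 12.6, 8.69 and 9.60 CPM at 0CU. It rose 2.45-fold (edgeR adjusted p = 0.0029), with more spread among the 475CU libraries than *GA3ox1*.

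The early steps of GA synthesis moved in the same direction. *GA1* (PRUPE_8G239900), which codes for the first enzyme that commits carbon to GA, had 15.6, 15.3 and 14.3 CPM at 475CU and 7.15, 7.73 and 6.78 CPM at 0CU (log2 fold change 1.06, SE 0.10, edgeR adjusted p = 3.3e-05). *KS* (PRUPE_4G128500), the ent-kaurene synthase of the next step, averaged 26.0 ± 1.74 CPM at 475CU, against 17.4 ± 1.05 CPM in 0CU buds (SD, n = 3 each; log2 fold change 0.58, edgeR adjusted p = 0.00116). Thus 4 of the 6 genes of synthesis rose. The others were not called, with log2 fold changes of 0.43 for *KO* (PRUPE_1G388500, edgeR adjusted p = 0.00712, under the fold limit) and 0.08 for *GA20ox1* (PRUPE_2G150700, edgeR adjusted p = 0.695). Of the 4 genes of GA inactivation, only the cytochrome P450 gene *CYP714A1* (PRUPE_2G267600) was called, with a log2 fold change of 0.57 (edgeR adjusted p = 0.0138), and this call was lost without the second 475CU library (0.43) or the second 0CU library (0.52). *GA2ox1*, *GA2ox2* and *GA2ox6*, which also inactivate GA, were not called.

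The DELLA proteins repress growth until GA triggers their breakdown. *RGL1* (PRUPE_4G132100), annotated as a DELLA gene, was near the detection limit at 0CU with 0.794, 0.241 and 0.105 CPM and had 7.95, 7.57 and 8.71 CPM at 475CU. It rose 20.6-fold (log2 fold change 4.36, SE 0.45, edgeR adjusted p = 6.44e-05) and had 5.82 ± 0.877 CPM at 770CU (SD, n = 3). The other DELLA genes *RGA* and *RGL2* and the GA receptor gene *GID1B* were not called.

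ABA genes moved in both directions. Of the 24 genes of the ABA list of the study, 7 rose, 7 fell and 10 were not called (58.3% called, against 24.7% of all tested genes), with a median log2 fold change of 0.30. *NCED3* (PRUPE_4G150100), whose enzyme is known as the limiting step of ABA synthesis, had 44.7, 109 and 78.9 CPM at 475CU and 70.3, 36.4 and 24.0 CPM at 0CU. The groups overlapped and the gene was not called (log2 fold change 0.82, SE 0.39, edgeR adjusted p = 0.118). Without the first 0CU library, it was called as higher at 475CU (log2 fold change 1.36, edgeR adjusted p = 0.0127).

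On the side of ABA synthesis and breakdown, *ABA1B* (PRUPE_7G133100), matched to the Arabidopsis zeaxanthin epoxidase that provides ABA precursors, had 91.0, 105 and 94.1 CPM at 475CU and 43.1, 37.4 and 42.0 CPM at 0CU (log2 fold change 1.24, SE 0.09, edgeR adjusted p = 1.39e-05). Its relative *ABA1A* (PRUPE_2G004500) went the other way on low levels, with 1.67 ± 0.487 CPM at 475CU, against 3.37 ± 0.326 CPM in 0CU buds (SD, n = 3 each; edgeR adjusted p = 0.00738). *CYP707A2* (PRUPE_6G072400), an ABA 8'-hydroxylase gene that serves the breakdown of ABA, had 61.8, 64.7 and 48.5 CPM at 475CU and 17.9, 29.8 and 26.5 CPM at 0CU, without overlap. It rose 2.36-fold (log2 fold change 1.24, SE 0.23, edgeR adjusted p = 0.002) and stood at 33.4 ± 9.34 CPM at 770CU (SD, n = 3).

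In ABA perception and signalling, the receptor gene *PYL4* (PRUPE_6G284000) had 3.38, 3.50 and 4.12 CPM at 475CU and 0.898, 1.16 and 1.41 CPM at 0CU (log2 fold change 1.67, SE 0.26, edgeR adjusted p = 0.000775). The transcription factor gene *AREB1/ABF2* (PRUPE_1G434500, log2 fold change 0.74, edgeR adjusted p = 0.0015), which acts on genes with ABA-responsive promoters, also rose. So did the gene that the study names *AREB2/ABF4* (PRUPE_8G125800, log2 fold change 1.47, edgeR adjusted p = 5.46e-05). The Arabidopsis gene listed as its match is however *CYP707A4*, of ABA breakdown, so its role is uncertain. In contrast, 4 of the 5 *CAR-like* genes fell, whose Arabidopsis relatives bring ABA receptors to the plasma membrane. *CAR-likeB* (PRUPE_3G162800) had 6.27, 3.88 and 4.38 CPM at 475CU and 26.2, 20.0 and 20.6 CPM at 0CU, a fall of 4.58-fold (log2 fold change -2.19, SE 0.19, edgeR adjusted p = 2.64e-05). *CAR-likeD* (PRUPE_5G233300) had 25.8, 26.0 and 23.1 CPM at 475CU and 45.6, 44.0 and 46.3 CPM at 0CU (log2 fold change -0.86, SE 0.09, edgeR adjusted p = 9.13e-05). *CAR-likeB*, *CAR-likeC* and *CAR-likeE* carry consecutive identifiers and match the same Arabidopsis gene, so reads could be split between them. The call of *ABI1* (log2 fold change 0.57) was lost in 3 of the 6 fits without a library, with log2 fold changes between 0.47 and 0.64 over all 6. That of *ABI5* (-0.54) was lost in 5 of the 6, with log2 fold changes between -0.74 and -0.38.

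**Figure D3:**
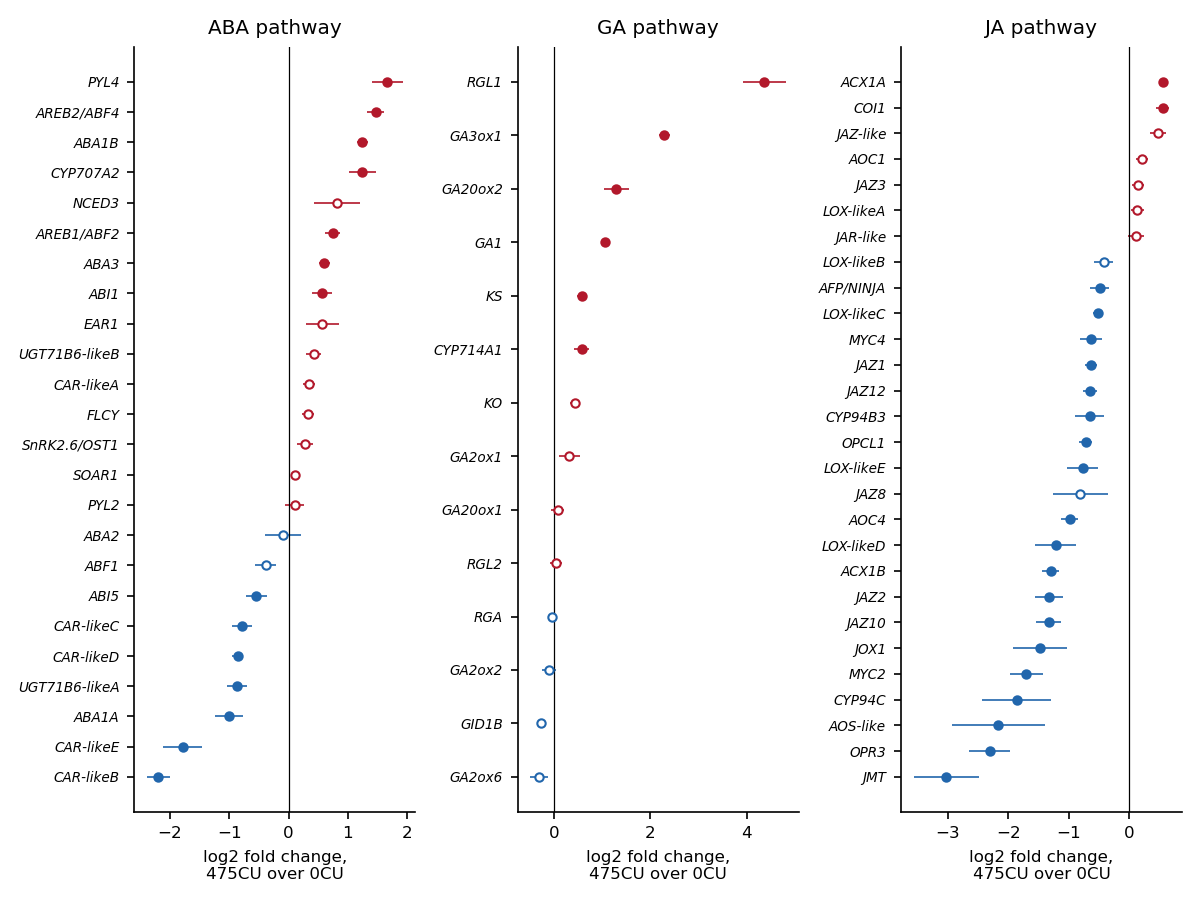
Log2 fold change of 475CU over 0CU on the x axis for each gene of the ABA, GA and JA lists, with bars of 1 standard error. Filled circles are called genes and open circles are genes not called, red for higher and blue for lower at 475CU. The ABA genes lay on both sides of 0, the called GA genes above it and most called JA genes below it.

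JA genes were mostly lower at 475CU. Of the 28 genes of the JA list, 19 fell, 2 rose and 7 were not called (75% called, against 24.7% of all tested genes), and the median log2 fold change was -0.69, the lowest of the 3 hormone lists. The count of genes that fell was between 12 and 17 when 1 library was left out, with 12 without the second 475CU library, and 10 of the 19 genes fell in all 6 fits. Genes named for synthesis contributed 9 of those that fell and genes named for signalling 7. Of these, *LOX-likeD*, *LOX-likeE*, *AOS-like* and *AFP/NINJA* had overlapping groups. The roles are those given by the study, and some listed Arabidopsis matches differ from the names. The *LOX-like* genes all list the same match, so their separate roles are uncertain.

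The gene that the study names *OPR3* (PRUPE_3G039200), although the Arabidopsis gene it lists as the match is the lipoxygenase gene *LOX3*, had 187, 156 and 136 CPM at 475CU and 1210.1, 780.3 and 371 CPM at 0CU. The 0CU libraries differed among themselves by more than the 475CU libraries, yet all of them were above the 475CU range (log2 fold change -2.30, SE 0.34, edgeR adjusted p = 0.000566). *MYC2* (PRUPE_5G035400), the main transcription factor of the JA response, had 126, 108 and 116 CPM at 475CU and 589, 312 and 234 CPM at 0CU (log2 fold change -1.70, SE 0.27, edgeR adjusted p = 0.000813). Without the first 0CU library, which was the highest for both genes, the log2 fold changes were -1.85 for *OPR3* and -1.23 for *MYC2*, and both calls remained. At 770CU, *OPR3* had 40.8 ± 6.68 CPM and *MYC2* 63.3 ± 4.74 CPM (SD, n = 3).

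JAZ proteins repress *MYC2* and are themselves induced by JA. *JAZ1* (PRUPE_7G194800) had 625, 544 and 529 CPM at 475CU and 929, 921 and 789.7 CPM at 0CU (log2 fold change -0.64, SE 0.10, edgeR adjusted p = 0.000599). *JAZ10* (PRUPE_1G218500, log2 fold change -1.33, edgeR adjusted p = 0.000766), *JAZ2* (PRUPE_3G037800, -1.32, edgeR adjusted p = 0.00148) and *JAZ12* (PRUPE_7G189200, -0.65, edgeR adjusted p = 0.00194) fell too, each without overlap. The other 3 genes of the family were not called, with log2 fold changes of 0.47 for *JAZ-like* (PRUPE_1G578500, edgeR adjusted p = 0.0202, under the fold limit), 0.14 for *JAZ3* (edgeR adjusted p = 0.274) and -0.81 for *JAZ8* (edgeR adjusted p = 0.181). *ACX1B* (PRUPE_7G200800), which the study matches to the Arabidopsis gene of 12-oxophytodienoate reductase, had 50.5, 36.8 and 42.3 CPM at 475CU and 102, 116 and 100.1 CPM at 0CU (log2 fold change -1.30, SE 0.14, edgeR adjusted p = 8.32e-05). *AOC4* (PRUPE_3G239900), an allene oxide cyclase gene, had 84.4, 62.7 and 57.2 CPM at 475CU and 138, 143 and 124 CPM at 0CU (log2 fold change -0.99, SE 0.14, edgeR adjusted p = 0.000396), and its call was lost in the fit of all 21 vegetative libraries. The 0CU libraries were within 1.18-fold of one another for *JAZ1*, *JAZ12*, *ACX1B* and *AOC4*, and within 1.79-fold for *JAZ2* and *JAZ10*.

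The genes that rose were *ACX1A* (PRUPE_6G181800), named for acyl-CoA oxidase, with 81.9 ± 4.26 CPM at 475CU, against 55.8 ± 2.42 CPM in 0CU buds (SD, n = 3 each; log2 fold change 0.55, edgeR adjusted p = 0.000248), and *COI1* (PRUPE_2G246000), the receptor of JA, with 157, 186 and 207 CPM at 475CU and 129.8, 123 and 122 CPM at 0CU. *COI1* rose 1.47-fold (edgeR adjusted p = 0.00269) and passed the fold limit except without the third 475CU library, where the log2 fold change was 0.44. Several calls among the JA genes rested on single libraries. *CYP94C* (PRUPE_6G126400), whose Arabidopsis relative inactivates the active JA conjugate, had 17.9, 6.25 and 13.0 CPM at 475CU and 62.2, 62.2 and 11.3 CPM at 0CU, and the third 0CU library lay within the 475CU range (edgeR adjusted p = 0.0258). *AOS-like* (PRUPE_8G110100) had 6.46, 0.994 and 1.76 CPM at 475CU and 4.38, 30.3 and 7.80 CPM at 0CU, and its log2 fold change of -2.16 (edgeR adjusted p = 0.0484) was -0.96 (edgeR adjusted p = 0.3) without the second 0CU library.

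A spread between the 0CU libraries was also seen outside the JA genes. Of the 2921 genes that fell, 359 differed by more than 2-fold between the highest and lowest 0CU library. This was close to the share among all tested genes, 2190 of 20950. Among the 475CU libraries, 324 of the genes that fell and 2020 of all tested genes differed as much. A spread of this size was thus not particular to 0CU or to genes that fell. The first 0CU library was the highest in 231 of these 359 genes and the third was the lowest in 240, against 893 and 859 of the 2190 genes. For the 236 genes with such a spread that rose, the corresponding counts were 132 and 95. What set these libraries apart was not tested.

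**Figure D4:**
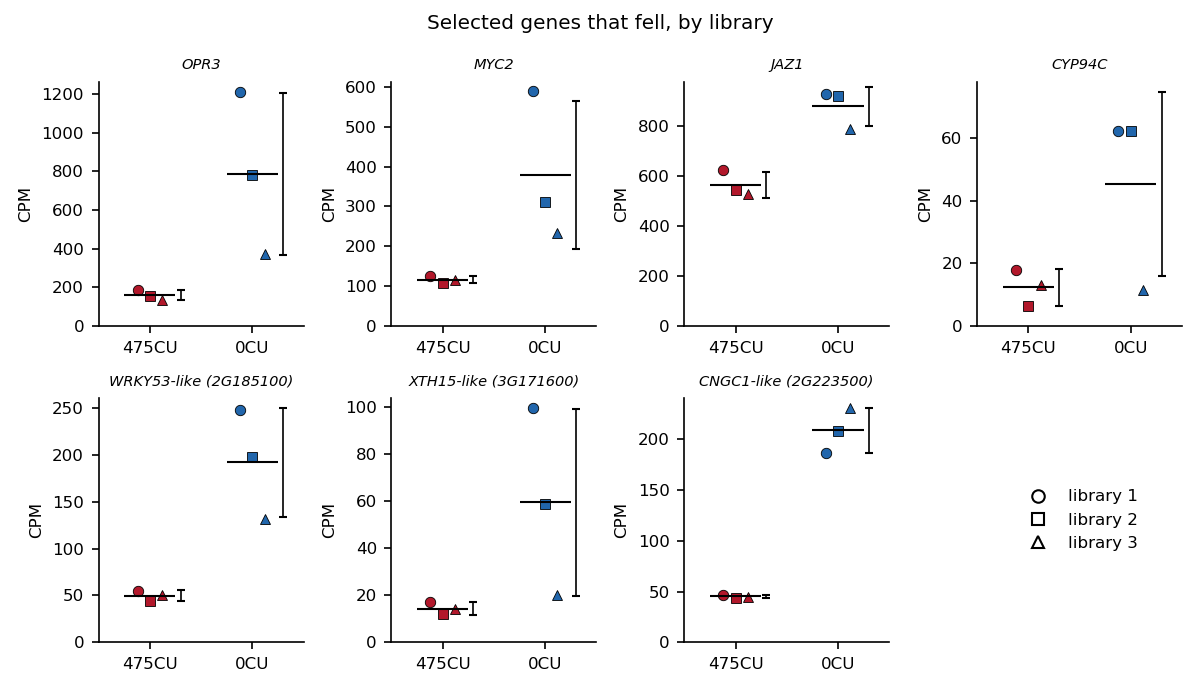
CPM by library of 7 genes that fell, with 475CU in red on the left, 0CU in blue on the right, a line at the mean and a bar of 1 SD (n = 3). In *OPR3*, *MYC2*, the *WRKY53* relative and the *XTH15* relative the first 0CU library was the highest and the third the lowest, while the *CNGC1* relative differed little among the 0CU libraries.

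Most meristem genes were not called, and those that were moved in both directions. Of 22 tested genes of this list, 3 rose, 4 fell and 15 were not called (31.8% called, against 24.7% of all tested genes), with a median log2 fold change of 0.09. Within the KNOX homeobox family, whose members keep shoot meristem cells undifferentiated or act in wall formation, directions differed. *STM* (PRUPE_4G015200), named after the central gene of shoot meristem maintenance in Arabidopsis, had 43.1, 49.6 and 57.3 CPM at 475CU and 33.5, 33.9 and 35.6 CPM at 0CU. It rose 1.46-fold (log2 fold change 0.54, SE 0.12, edgeR adjusted p = 0.00535), and without the third 475CU library the log2 fold change of 0.42 was under the limit. *KNAT1* (PRUPE_1G416700) had 207, 207 and 247 CPM at 475CU and 159, 169 and 152 CPM at 0CU, a change of 1.38-fold that was just under the limit (log2 fold change 0.46, edgeR adjusted p = 0.00487). It passed the limit without the first (0.50) or the second (0.51) 475CU library or the second 0CU library (0.50).

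*KNOX-B* (PRUPE_5G171100) had 57.4, 55.9 and 50.5 CPM at 475CU and 119.9, 119.9 and 111 CPM at 0CU, with little spread in either group, and fell 2.14-fold (log2 fold change -1.10, SE 0.08, edgeR adjusted p = 1.21e-05). *KNOX-A* (PRUPE_3G212100, log2 fold change -1.09, edgeR adjusted p = 0.00314) fell by a similar factor on low levels. Its listed Arabidopsis match is the same as that of *STM*, so peach genes with this match moved in opposite directions. *KNAT7* (PRUPE_5G088100, log2 fold change -0.77, edgeR adjusted p = 0.00022), known in Arabidopsis for secondary cell walls, fell as well. *PRS* (PRUPE_6G088900), a WOX homeobox gene of lateral organ margins, had 15.4, 17.2 and 15.1 CPM at 475CU and 38.2, 32.2 and 28.2 CPM at 0CU (log2 fold change -1.05, SE 0.13, edgeR adjusted p = 0.000187). At 770CU *PRS* had 28.5 ± 3.64 CPM (SD, n = 3), within the range of 0CU. The gene that the study names *CLAVATA3/ESR* (PRUPE_8G204100), after a family of signal peptides, averaged 59.0 ± 2.72 CPM at 475CU, against 68.0 ± 3.27 CPM in 0CU buds (SD, n = 3 each). It was not called (edgeR adjusted p = 0.112), and its listed Arabidopsis match is not *CLAVATA3* itself. *WOX1* (PRUPE_5G232600) had a log2 fold change of 0.06 (edgeR adjusted p = 0.863).

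Among genes of flowering time, *CO/COL1/COL2-A* (PRUPE_3G245100), a relative of the day length gene *CONSTANS*, had 63.7, 70.2 and 62.7 CPM at 475CU and 18.0, 12.7 and 9.67 CPM at 0CU. The rise of 4.88-fold (log2 fold change 2.29, SE 0.21, edgeR adjusted p = 3.08e-05) was the largest of the meristem list, and the level at 770CU was 53.6 ± 10.2 CPM (SD, n = 3). Relatives of *CONSTANS* follow day length and time of day, and neither was varied separately from chilling here. *BBX14/BBX15* (PRUPE_1G310900) also rose (log2 fold change 0.82, edgeR adjusted p = 0.0352), but the call was lost in 5 of the 6 fits without a library, namely without the first (0.87) or second (0.53) of 475CU or any of the 0CU libraries (0.73, 0.86 and 0.88).

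Among genes of higher level, the largest rises exceeded the largest falls in size, although more genes fell than rose by over 1 on the log2 scale. Genes of very low level (average log2 CPM under 3) and genes whose groups overlapped were set aside for this ranking. Since the average includes the 770CU libraries, genes high at both 475CU and 770CU passed more easily than genes high at 0CU alone. Over all called genes, 67 rose and 61 fell by more than 3 on the log2 scale. The 15 called genes that rose most did so by 13.0-fold to 250.4-fold, and the 15 that fell most did so by 5.60-fold to 24.7-fold. All 30 were called in each of the 6 fits without a library, which their selection for size and lack of overlap made likely. None of the 15 risers is paired with a name in the sources used here. The first of them, PRUPE_1G021700, had 59.0, 91.4 and 44.5 CPM at 475CU and 0.207, 0.338 and 0.246 CPM at 0CU (log2 fold change 7.97, SE 0.35, edgeR adjusted p = 5.07e-07). The second, PRUPE_3G021100, had 157, 187 and 154 CPM at 475CU and 1.00, 1.11 and 0.738 CPM at 0CU (log2 fold change 7.46, SE 0.23, edgeR adjusted p = 7.94e-08). All 475CU libraries of both genes were far above all 0CU libraries, and at 770CU the genes had 170.1 ± 25.5 and 132 ± 31.2 CPM (SD, n = 3).

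Of the 15 genes that fell most, 6 carry an annotation from the study. The first, PRUPE_1G237100, an acyltransferase of the HXXXD type named after an alkaloid acetyltransferase of another plant, had 3.41, 3.60 and 2.32 CPM at 475CU and 76.1, 82.8 and 71.6 CPM at 0CU (log2 fold change -4.62, SE 0.17, edgeR adjusted p = 1.88e-07). Its neighbour in the identifiers and in the annotation, PRUPE_1G237200, averaged 17.0 ± 7.57 CPM at 475CU, against 78.4 ± 10.9 CPM in 0CU buds (SD, n = 3 each; log2 fold change -2.21, edgeR adjusted p = 0.00019). The genes PRUPE_3G131500 (log2 fold change -3.03, edgeR adjusted p = 0.00033) and PRUPE_1G074400 (-2.52, edgeR adjusted p = 4.03e-05) code for bHLH transcription factors. PRUPE_1G477600 (-2.64, edgeR adjusted p = 0.000104) is annotated only as a protein of unknown function, and PRUPE_1G011600 (-2.63, edgeR adjusted p = 0.000681) as a hydrolase of the haloacid dehalogenase type. The largest fall without an annotation, that of PRUPE_7G048300, was 15.1-fold (edgeR adjusted p = 7.3e-06).

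Annotations were at hand for 1627 genes of a module that the study had selected because their expression followed chilling and day length in the vegetative buds of both seasons. Of the 1620 tested, 829 fell, 13 rose and 778 were not called, so the direction of the families below was set by that selection and is no independent evidence. All 15 genes for cyclic nucleotide-gated channels, which carry calcium and other cations, fell, with a median log2 fold change of -1.39. The *CNGC1* relative PRUPE_2G223500 had 46.5, 44.3 and 45.1 CPM at 475CU and 187, 209 and 231 CPM at 0CU, a fall of 4.62-fold with little spread (log2 fold change -2.21, SE 0.09, edgeR adjusted p = 3.78e-07). Its neighbour PRUPE_2G223700 was among the 15 largest falls, with 47.6, 51.7 and 31.0 CPM at 475CU and 247, 237 and 246 CPM at 0CU (log2 fold change -2.48, SE 0.17, edgeR adjusted p = 7.53e-06). Several of these genes have close identifiers and the same Arabidopsis match, and reads could be split between such copies.

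Among families known from defence, WRKY, disease resistance receptor and protein kinase genes were called in shares of 56.2%, 61.9% and 57.1%, near the 52% of the whole module. Of 16 annotated WRKY transcription factor genes, 9 fell and 7 were not called. The *WRKY53* relative PRUPE_2G185100 had 55.1, 43.7 and 51.0 CPM at 475CU and 247, 197 and 131 CPM at 0CU (log2 fold change -1.94, SE 0.20, edgeR adjusted p = 5.71e-05), and the relatives of *WRKY40* (PRUPE_3G098100, -1.84, edgeR adjusted p = 0.000129) and *WRKY70* (PRUPE_2G265000, -1.68, edgeR adjusted p = 1.2e-05), known from pathogen responses in Arabidopsis, fell as well. In 7 of the 9 WRKY genes that fell the first 0CU library was the highest. Genes for disease resistance receptors fell in 38 of 63 cases and rose in 1, and those for protein kinases fell in 43 of 77 cases and rose in 1. The riser among the kinases, the *CRK2* relative PRUPE_3G012100, had 56.3, 71.1 and 62.8 CPM at 475CU and 31.6, 27.4 and 24.0 CPM at 0CU (log2 fold change 1.20, SE 0.12, edgeR adjusted p = 6.12e-05). Of 11 genes for allergen and MLP-like proteins, 10 fell, with the Pru ar 1 relative PRUPE_1G128600 at 39.4, 38.5 and 25.5 CPM at 475CU and 131, 133 and 117 CPM at 0CU (log2 fold change -1.88, edgeR adjusted p = 1.81e-05).

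Among wall and phloem genes, 6 of 7 xyloglucan endotransglucosylase genes, whose enzymes remodel the cell wall, fell (85.7% called, against 52% of the whole module). The *XTH15* relative PRUPE_3G171600 had 17.1, 12.0 and 14.0 CPM at 475CU and 99.3, 58.7 and 20.2 CPM at 0CU (log2 fold change -2.05, SE 0.49, edgeR adjusted p = 0.00801), and without the first 0CU library the log2 fold change was -1.45. The first 0CU library was the highest in 5 of the 6 genes and the third the lowest in all 6. The 3 genes of sieve element occlusion proteins, which seal phloem tubes, fell in parallel. PRUPE_1G028800 had 127, 108 and 209 CPM at 475CU and 664, 627 and 742 CPM at 0CU (log2 fold change -2.20, SE 0.22, edgeR adjusted p = 5.37e-05). The third 475CU library was the highest of its group in this gene, and the groups did not overlap.

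Genes of light harvesting moved in both directions, with 3 that rose, 1 that fell and 5 not called out of 9, and a median log2 fold change of 0.11. The share called was 44.4%, against 52% of the whole module, in which 13 of 1620 tested genes rose. The *LHCB1* relative PRUPE_3G174700, which codes for an antenna protein of photosystem II, had 152, 171 and 128 CPM at 475CU and 110.0, 73.3 and 72.2 CPM at 0CU (log2 fold change 0.82, SE 0.19, edgeR adjusted p = 0.00631). Another *LHCB1* relative, PRUPE_3G004100, went down, with 26.2, 24.6 and 26.1 CPM at 475CU and 40.2, 45.2 and 46.3 CPM at 0CU (log2 fold change -0.78, SE 0.09, edgeR adjusted p = 0.000109). The groups of either gene did not overlap.

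The change of season A was set beside the changes up to 475CU in season B, where 0CU buds were not among the vegetative libraries. The nearest comparisons there are 475CU with Pre0CU, a collection made before effective cold had begun, and 475CU with 200CU. According to the study, Pre0CU buds were collected in early September, under longer days. The 0CU buds of season A were collected at the end of October and the 200CU buds of season B at the start of November. Pre0CU is thus nearer to 0CU in chilling, and 200CU in date and day length. All 21 vegetative bud libraries were normalized together for this purpose, so CPM are on another scale than above. The change differed between seasons for 5407 of 26752 tested genes (20.2%) against 475CU over Pre0CU and for 5315 (19.9%) against 475CU over 200CU. Among the 104 listed genes, 43 and 44 differed between seasons. In the same fit, 23.5% of the genes were called between 475CU and 0CU of season A, 23.1% between 475CU and Pre0CU and 6.31% between 475CU and 200CU of season B. These shares are of 26752 genes, more than the 20950 tested in season A alone. Genes near 0 in season A could pass the filter through season B only, and their season A change is poorly measured. With at least 10 counts in every library, 4885 genes differed between seasons over Pre0CU and 4868 over 200CU. Year, starting point and counting differ between these contrasts and cannot be told apart, and the 2 tests share the 475CU libraries of both seasons and the 0CU libraries.

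*DAM6* was lower at 475CU than at 0CU in season A, but higher at 475CU than at Pre0CU in season B. It had 1015, 1022 and 1189.8 CPM at 475CU of season B, against 523, 529.6 and 556 CPM at Pre0CU and 1375, 1314 and 1227 CPM at 200CU. The log2 fold change was 1.00 over Pre0CU and -0.28 over 200CU, so that the difference between seasons was -2.12 (SE 0.12, edgeR adjusted p = 3.9e-10) and -0.83 (SE 0.12, edgeR adjusted p = 3.96e-05). *DAM5* showed the same order, with 516, 532 and 539 CPM at 475CU of season B, 152, 149 and 159 CPM at Pre0CU and 632, 621 and 648 CPM at 200CU. Its difference between seasons was -2.60 (edgeR adjusted p = 7.32e-12) against Pre0CU and -0.56 (edgeR adjusted p = 0.000883) against 200CU, and the last one was under the fold limit without the first 0CU library (-0.46). For *DAM4* the change was upward in all 3 contrasts, with log2 fold changes of 1.03 in season A, 2.43 over Pre0CU and 0.56 over 200CU. The *LFY* level of the season B libraries of 475CU was 27.9, 26.5 and 3.52 CPM, and without the 2 libraries of high *LFY* the *DAM6* differences were -2.26 and -0.98 and the *DAM5* differences -2.63 and -0.58.

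**Figure D5:**
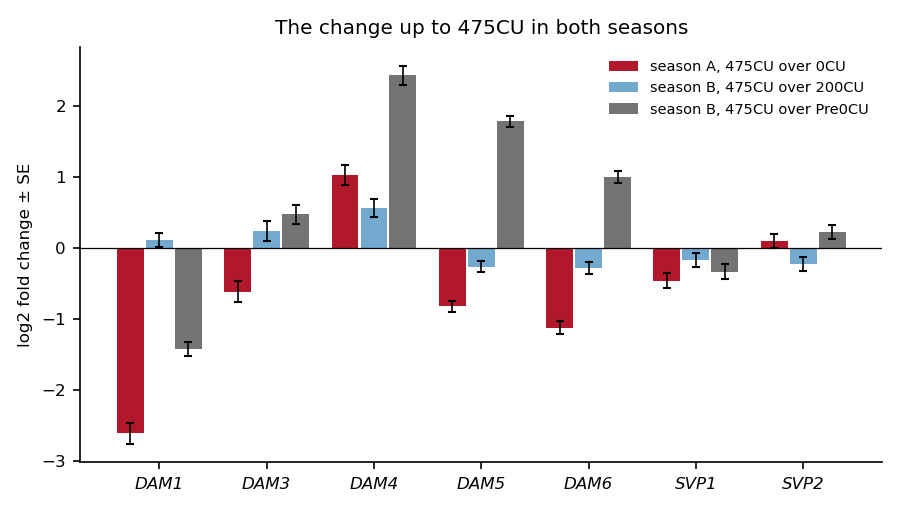
Log2 fold change (bars, with 1 standard error) of *DAM* and *SVP* genes at 475CU over 0CU in season A (red), over 200CU in season B (light blue) and over Pre0CU in season B (grey), from the fit of 21 libraries. *DAM5* and *DAM6* were lower at 475CU in season A and higher over Pre0CU in season B, whereas *DAM4* was higher in all 3 contrasts.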

How the data were processed

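The deposited tables hold raw counts per gene, made by the authors from trimmed reads mapped with STAR to the peach genome and counted on exons with bedtools 2.30.1, with duplicated reads discarded. The deposited identifiers carry no names, so gene names, roles and annotations are those of the study, and gene sequences were not used here. Counts were normalized with TMM and tested with the quasi-likelihood test of edgeR 4.0.16 in R 4.3.3, in a fit of the 9 season A libraries without covariates, after filterByExpr with a minimum count of 10. P-values were adjusted by Benjamini-Hochberg over all tested genes, and calls needed an adjusted p below 0.05 and a fold change above 1.4. CPM are counts scaled to equal normalized library size. The standard error was taken from the log2 fold change and its F statistic. Seasons were compared by a contrast of 2 differences in a fit of 21 libraries in 7 groups. Total counts per library were 39615840 to 62009694, and counting error was thus small for genes with many counts.

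Named genes were all *DAM* and *SVP* genes, called hormone and meristem genes with large changes, and the 15 risers and 15 fallers defined in the text, of which at most 2 without an annotation are printed per direction. Planned families from product names of a reference could not be built, and words in the annotation of the study were used instead, a choice made after seeing the data, naming up to 4 called members per family. The genes and lists were chosen with earlier results of these data known. Tissue markers and NCED3 were named although not called. Alternatives were DESeq2 1.42.0, RLE normalization, other filters and thresholds, halved counts, other sets of libraries, a replicate block and leaving out each library. Replicate libraries differed by more than counting noise (chi-square per gene 9.47 to 42.4 on halved counts), so none was counted as a copy. The scripts were tested on simulated data. Figures were drawn with matplotlib 3.10.9. The flower bud table was not used here.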

Additional observations from a re-analysis of the deposited data

Results flagged for a closer look

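The change up to 475CU differed between the seasons by a test of the difference itself, for 5407 genes when season B was taken over Pre0CU and for 5315 genes when it was taken over 200CU. The genes tested include some that passed the filter on low counts through season B only. Among the *DAM* genes, the log2 difference of season A minus season B over Pre0CU was -1.18 for *DAM1*, -1.09 for *DAM3*, -1.40 for *DAM4*, -2.60 for *DAM5* and -2.12 for *DAM6*. Over 200CU it was -2.72 for *DAM1*, -0.86 for *DAM3*, -0.56 for *DAM5* and -0.83 for *DAM6*. *SVP1* and *SVP2* were not called in either test. Season, starting point and the counting of reads cannot be told apart in these differences. Groups of 3 libraries are too small for a search for single outlying samples.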

How the results depend on the processing

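Of the 5177 calls, stricter thresholds kept fewer, since they call a subset: 3138 (1369 rose and 1769 fell) at a fold change of 1.5 and an adjusted p of 0.01, 1140 (426 and 714) at an absolute log2 fold change over 1.4, and 2132 (899 and 1233) with glmTreat against 1.4-fold. At an absolute log2 fold change over 1.4, the differences between seasons were called for 1674 genes over Pre0CU and 1300 over 200CU. DESeq2 (5430 calls), RLE normalization (5179), no filter (5151), at least 10 counts in every library (4828), halved counts (5134), only the 6 libraries (4990) and all 21 vegetative libraries (6274) stayed within 1.5 times. Leaving out 1 library gave 1908 to 2230 genes that rose and 2473 to 2747 that fell, and 4809 to 5380 and 4768 to 5394 differences between seasons over Pre0CU and 200CU. Without the 2 season B libraries of high *LFY*, a choice made after seeing the data, these were 4065 and 3699.

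Of 148 named genes, DESeq2, RLE, halved counts and no filter changed no call. Most of these genes were chosen because they were called, many for a large change, which made stable calls likely. Most listed genes that were not called are not among them. The fit of 21 libraries lost *AOC4* and gained *NCED3*, and the fit of 6 lost *AFP/NINJA*, *LOX-likeE*, *ABI5* and *AOS-like*. The stricter thresholds, in the order above, lost 24, 65 and 37. With 1 library left out, *WOX1*, not called, had log2 fold changes from -0.21 to 0.28. The season differences over Pre0CU, also not called, ran from -0.19 to 0.026 for *SVP1* and from -0.17 to 0.048 for *SVP2*.

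The libraries of 475CU and 0CU share replicate numbers, but same-numbered libraries did not deviate together (correlations -0.15, -0.17 and 0.00), so the numbers were not taken as pairs. With a replicate block 5149 genes were called (2236 rose and 2913 fell), *AFP/NINJA* and *AOS-like* lost their calls, and the season differences numbered 5541 and 5545.

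Genes of low counts such as *DAM1* and *JMT* are measured less precisely, and the doubled counts of season A make that precision look better than it was. The cause of the low *DAM2* counts in season A was not tested.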
